A study of Mus musculus with 12 samples.

Results

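The genes described here carry the signal of the adenosine receptor A2AR into the cell: the Gs subunit, the adenylyl cyclases that make cAMP, the phosphodiesterases that break it down, protein kinase A (PKA) with its subunits, inhibitors and anchoring proteins, the second cAMP sensor Epac with Rap1, the CREB transcription factors with their co-activators, the salt-inducible kinases and Csk. They were a list of 45 genes in 11 roles, drawn up from their known functions. Of these, 38 had at least 10 counts in at least 3 of the 12 libraries and were kept. They were described in CD8+ tumor-infiltrating lymphocytes (TILs) over the 4 conditions of GFP and treatment. None of the 38 genes passed an adjusted p of 0.05 between GFP+ and GFP− cells or between anti-PD-L1 and non-treated cells, whereas Adora2a, which encodes the receptor itself, was higher in GFP+ cells under both treatments.

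The 7 genes not kept were Adcy4 and Adcy9 (cyclases), Pde2a and Pde7b (phosphodiesterases), Prkar1b (a PKA regulatory subunit), Pkia (a PKA inhibitor) and Rapgef3, which encodes Epac1. Their highest count in any library was 6 for Adcy4, 11 for Adcy9, 9 for Pde2a, 1 for Pde7b, 10 for Prkar1b, 14 for Pkia and 1 for Rapgef3. They were not tested.

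All libraries came from A2AR eGFP reporter mice, Tg(Adora2a-EGFP)EP141Gsat, on a C57BL/6 background. They carry a BAC transgene in which Adora2a regulatory DNA drives GFP, which therefore follows the activity of that DNA and not the amount of receptor protein. According to the methods the mice were 6 to 16 weeks old, and those given AT3ova were female. AT3ova is a mouse mammary carcinoma line made to express chicken ovalbumin, and 500000 cells were injected under the skin. CD8+ TILs were sorted at day 21 into GFP+ and GFP− cells, from non-treated mice and from mice given anti-PD-L1, an antibody that blocks the ligand of PD-1, at days 14 and 18. Each of the 4 conditions had 3 libraries, and each library pooled the cells of 3 mice. Whether a GFP+ and a GFP− library came from the same mice is not stated. The libraries are named here by their codes: KT14, KT16 and KT18 were non-treated GFP−, KT13, KT15 and KT17 non-treated GFP+, KT20, KT22 and KT24 anti-PD-L1 GFP−, and KT19, KT21 and KT23 anti-PD-L1 GFP+.

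As background, adenosine on A2AR releases the Gs subunit, which switches on adenylyl cyclase, and the rise in cAMP frees the catalytic subunits of PKA from their regulatory subunits. In T cells PKA held near the membrane activates Csk, a kinase that restrains Lck and with it signaling from the T cell receptor, and PKA in the nucleus phosphorylates CREB on genes that carry a cAMP response element (CRE). Phosphodiesterases end the signal, and several of the genes that CREB drives, Crem and Sik1 among them, feed back on it. The signal itself runs through cAMP and phosphorylation, neither of which is measured by RNA-sequencing.

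The libraries were QuantSeq, in which reads start near the 3′ ends of transcripts, and the deposited values were raw counts per gene. Between 11292699 and 19023900 reads were counted per library. Levels are given in CPM, the counts of a gene scaled to 1000000 counts per library, on library sizes normalized by edgeR's TMM method. Because labels do not say that cells within a condition came from separate experiments, p-values measure the spread between these libraries. Both KT13 and KT21 stood apart: their median Spearman correlation with the other libraries over all genes was 0.941 and 0.935, against 0.967 to 0.977 for the other 10. Both are GFP+, 1 in each treatment, so results that rest on GFP+ cells are also given over the 10 libraries without them.

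The sorted cells held T cell transcripts throughout, with a summed level of 7 T cell markers between 3863 and 6010 CPM. This sum also moved with the groups. It was 4536 to 4638 CPM in non-treated GFP− and 3863 to 4226 in non-treated GFP+ libraries. After anti-PD-L1 it was 5111 to 5358 CPM in GFP− and 4629 to 6010 in GFP+ libraries. Markers used for other cells moved with the groups too. The 5 NK cell markers were Ncr1, Klrb1c, Eomes, Klra4 and Klra8. Bulk libraries do not show whether NK or CD8+ T cells carried these transcripts. Their sum was 86.3 to 104 CPM in non-treated and 78.8 to 98.1 CPM in anti-PD-L1 GFP+ libraries, against 57.1 to 66.4 and 48.2 to 50.1 CPM in GFP− libraries. Klrb1c, which encodes NK1.1, was higher in GFP+ cells (log2 fold change 1.26, adjusted p = 0.0041, edgeR), also over 10 libraries (1.21). The 9 macrophage markers summed to 150 to 215 CPM in non-treated GFP−, 198 to 272 in non-treated GFP+, at most 129 in anti-PD-L1 GFP− and 84.2 to 161 in anti-PD-L1 GFP+ libraries, with Mrc1 at 0 in the last. The 5 dendritic cell markers summed to at most 60.8 CPM in treated and to 45.1 to 98.5 CPM in non-treated libraries. Xcr1 and Cd209a were at 0 in both anti-PD-L1 groups. Clec9a was at 0 in non-treated GFP+ and anti-PD-L1 GFP− libraries and had counts in the other groups. B cell markers stayed at or below 7.12 CPM, neutrophil markers at or below 2.75 CPM, and the 2 CD4 T cell markers between 6.89 and 24.9 CPM, with Cd4 itself at 0 in anti-PD-L1 GFP− libraries. Tumor epithelium markers reached at most 32.0 CPM and those of fibroblasts and vessels at most 73.5 CPM. The part of these cells in any difference below was not tested. In bulk libraries, fewer cells of a type and less RNA per cell cannot be told apart.

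The sort was checked on Adora2a (chr10:75316877-75334784, GRCm38), the gene whose regulatory sequences drive GFP. It was at 19.7, 24.3 and 22.6 CPM in non-treated GFP− and at 67.3, 63.0 and 60.2 CPM in non-treated GFP+ libraries, and at 31.4, 34.6 and 26.0 CPM in anti-PD-L1 GFP− and 66.3, 111 and 89.1 CPM in anti-PD-L1 GFP+ libraries. No GFP+ library overlapped a GFP− library. In GFP+ against GFP− cells the log2 fold change was 1.52 over both treatments (95% interval 1.23 to 1.82, adjusted p = 3.65e-04, edgeR), 1.51 in non-treated (adjusted p = 0.027) and 1.53 in anti-PD-L1 cells (adjusted p = 0.0226). Over 10 libraries it was 1.40, 1.47 and 1.34. The interaction with treatment was 0.02 (95% interval -0.56 to 0.60) and over 10 libraries -0.13 (-0.63 to 0.37). Within 1 treatment the call rested on single libraries: the adjusted p rose above 0.05 in non-treated cells without any one of KT14, KT15, KT16, KT17, KT18, KT20, KT22 and KT23 (at most 0.429, log2 fold change 1.43 to 1.57) and in anti-PD-L1 cells without any one of KT15, KT17, KT18, KT20, KT22 and KT24 (at most 0.264, log2 fold change 1.45 to 1.65). Over both treatments it was called without each library in turn.

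A CRE in a promoter is the DNA site that CREB binds, and the promoters with the full palindrome are shown because they are the places where the factor could act on the pathway's own genes and its targets. RefSeq promoter windows (250 bases before to 50 after a transcript start, GRCm38.p6) were found for 37 of the 45 genes. The 8 without a window, and so not searched, were Adcy6, Pde3b, Pde7a, Pkia, Rap1a, Crem, Crtc2 and Sik1. The full CRE, TGACGTCA, which reads the same on both strands, was in the windows of 2 of the 37 genes, Prkar1a and Rap1b (5.41%), against 2.03% of 27025 genes with a window. A shorter core, TGACG on either strand (CGTCA on the other), also counted wherever the full site stood, was in 19 of 37 genes (51.4%) against 23.0% of all genes. The 45 genes had 73 windows, some genes having several starts, and by window the shares were 31.5% against 20.8%. Of 20 known CREB target genes used further below, 19 had a window, 4 of these held the full site (Areg, Btg2, Dusp1 and Maff) and 16 the core. A match is a stretch of letters and does not say that CREB binds there in these cells. The 6 sites follow, 30 bases each, with the CRE in capitals, 5′ to 3′ on the strand of the gene.
Prkar1a: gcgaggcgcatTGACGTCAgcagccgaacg
Rap1b: ggctgaacgccTGACGTCAaggcgacaccg
Areg: gggctggtccgTGACGTCAcgggcggtggc
Btg2: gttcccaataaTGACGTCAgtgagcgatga
Dusp1: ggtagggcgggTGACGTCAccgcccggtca
Maff: ggctggggcggTGACGTCActgcatgactg
They lie at chr11:109650889-109650918 on the plus strand (Prkar1a, the site beginning 49 bases before a start), chr10:117845998-117846027 on the minus strand (Rap1b, 42 bases before), chr5:91139527-91139556 on the plus strand (Areg, 61 bases before), chr1:134079303-134079332 on the minus strand (Btg2, 166 bases before), chr17:26508597-26508626 on the minus strand (Dusp1, 143 bases before) and chr15:79347480-79347509 on the plus strand (Maff, 29 bases before).

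The first question was whether GFP+ and GFP− cells, which differ in the receptor transcript, also differ in the machinery behind it. In non-treated cells 0 of 38 genes passed an adjusted p of 0.05 and the smallest adjusted p was 0.862 (edgeR's quasi-likelihood F test, as in all comparisons below), where 0.00706% of the 14173 genes tested did. At an unadjusted p under 0.05 there were again 0 of 38, against 6.05% of all genes. In anti-PD-L1 cells 0 of 38 passed (smallest adjusted p = 0.993, all genes 0.0282%), and only Pkig passed unadjusted (all genes 4.08%). Over both treatments together, the comparison with the most power, 0 of 38 passed (smallest adjusted p = 0.528, all genes 0.31%), with Pkig higher and Rap1a lower in GFP+ cells at an unadjusted p under 0.05 (all genes 8.18%). Of the 38 genes 17 had a positive and 21 a negative value, with a median log2 fold change of -0.02, against 0.00 over all genes. Over 10 libraries 13 were positive and 25 negative, with a median of -0.04.

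The second question was whether PD-L1 blockade moved these genes. In GFP+ cells 0 of 38 passed (smallest adjusted p = 0.692, all genes 0.0141%), with Akap9 lower at an unadjusted p (all genes 6.74%). In GFP− cells 0 of 38 passed (smallest adjusted p = 1, all genes 0%), with Pkig lower unadjusted (all genes 3.44%). Over GFP+ and GFP− cells together 0 of 38 passed (smallest adjusted p = 0.562, all genes 0.395%), with Pkig lower and Akap11 higher unadjusted (all genes 7.67%). The interaction, which asks whether treatment acted differently in GFP+ and GFP− cells, gave 0 of 38 at either level (all genes 0% adjusted and 2.08% unadjusted).

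Over the 10 libraries, with 14747 genes tested, the count of members called was also 0 in all 7 comparisons. GFP+ against GFP− had Gnas and Crtc2 higher at an unadjusted p in non-treated cells (all genes 0.339% adjusted, 9.24% unadjusted), Pkig and Crem higher and Rapgef6 lower in anti-PD-L1 cells (0.17% and 5.34%), and Gnas, Pkig and Crtc2 higher and Rap1a lower over both (1.08% and 10.3%). The smallest adjusted p of any member in any comparison, 0.169, was for Crtc2 in the last of these. Treatment had Adcy7 higher in GFP+ cells (0.563% and 8.54%), Adcy3, Akap11 and Rapgef6 higher and Pde4a and Pkig lower in GFP− cells (0.373% and 7.22%), and Adcy3, Akap11 and Rap1a higher and Pde4a and Pkig lower over both (1.36% and 11.2%). The interaction had Rapgef6 (0% and 4.29%). DESeq2 called 0 members in each comparison with either set of libraries, where it called between 0 and 301 of all genes. Of the 38 genes, limma-voom with library weights likewise called 0, against up to 132 of all genes.

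How large a change could still be hidden was read from the 95% intervals of the fold changes. For GFP+ against GFP− over both treatments the interval lay within 1.5-fold in either direction for 26 of 38 genes and within 2-fold for 29, against 40.6% and 65.6% of all genes. For treatment over GFP+ and GFP− together it did so for 24 and 32 genes, against 43.1% and 67.2%. Interval width went with level. The 29 genes at or above 10 CPM all had intervals within 2-fold in both comparisons, and 26 and 24 of them within 1.5-fold (29 and 26 over 10 libraries). The 9 genes under 10 CPM (Adcy6, Pde1b, Pde8a, Prkar2b, Pkig, Akap1, Akap10, Rapgef4 and Crtc2) had a median standard error of 0.49 on the log2 scale, against 0.12 for the other 29. All 9 intervals reached beyond 2-fold for GFP and 6 of them for treatment, so a change of that size was not excluded there. Within 1 treatment or 1 sort, intervals of genes at or above 10 CPM also reached beyond 2-fold over 12 libraries. They did for Pde4d (GFP, non-treated), Pde4a (GFP, anti-PD-L1), 4 genes with treatment in GFP+ and 3 in GFP− cells. In the interaction they did for 6 genes, Gnas among them, and 9 of the 29 lay within 1.5-fold. Over 10 libraries these counts were 0, 0, 1, 0 and 3, with 14 within 1.5-fold in the interaction.

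**Figure D1:**
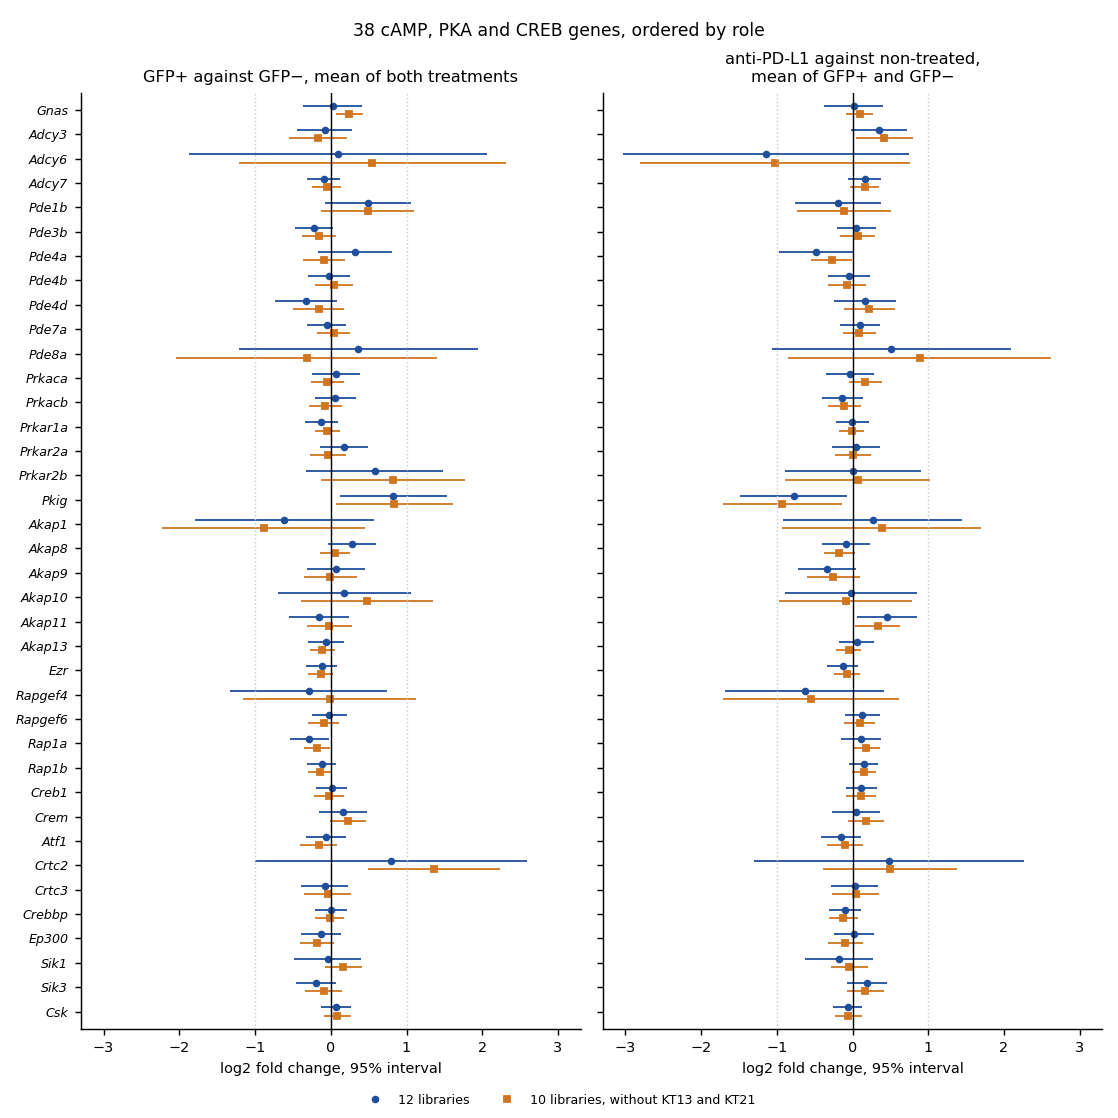
Log2 fold change (x axis) with its 95% interval for each of the 38 genes, listed by role, for GFP+ against GFP− over both treatments (left) and anti-PD-L1 against non-treated over both sorts (right). Blue points are 12 libraries, orange squares 10 libraries without KT13 and KT21, and dotted lines mark a 2-fold change. The 29 genes at or above 10 CPM keep within the dotted lines, and the wide bars belong to the 9 genes under 10 CPM.

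Gnas (chr2:174284320-174346744) encodes the stimulatory G protein subunit through which A2AR acts. It was at 273, 356 and 324 CPM in non-treated GFP−, 289, 410 and 399 in non-treated GFP+, 378, 331 and 384 in anti-PD-L1 GFP− and 423, 177 and 380 CPM in anti-PD-L1 GFP+ libraries. The groups overlapped, and the lowest value by far was that of KT21. Its log2 fold change in GFP+ cells was 0.02 (95% interval -0.37 to 0.41) over 12 libraries and 0.24 (0.07 to 0.42, adjusted p = 0.248) over 10. In non-treated cells the 10 libraries gave 0.35 (adjusted p = 0.328), where both remaining GFP+ libraries lay above all GFP− libraries. An annotated gene, Gm20721, shares bases with an exon of Gnas, so part of its reads could be split between them.

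Of the adenylyl cyclases, Adcy7 (chr8:88272403-88329962), the form most typical of blood cells, carried 86.9% to 90.1% of the reads of the 5 listed cyclases as a group mean, with either set of libraries. Its levels were 108, 108 and 121 CPM in non-treated GFP− and 90.2, 99.3 and 97.4 CPM in non-treated GFP+ libraries, followed by 115, 107 and 120 CPM in anti-PD-L1 GFP− and 108, 111 and 134 CPM in anti-PD-L1 GFP+ libraries. The non-treated GFP+ libraries were the lowest group, below every non-treated GFP− library and every anti-PD-L1 GFP+ library. With treatment in GFP+ cells the log2 fold change was 0.30 (95% interval -0.00 to 0.60, adjusted p = 0.739), and 0.30 (0.01 to 0.59, adjusted p = 0.573) over 10 libraries. Adcy3 ranged from 8.99 to 19.2 CPM, with a log2 fold change with treatment over both sorts of 0.35, and of 0.42 over 10 libraries. Adcy6 was at or under 2.52 CPM in every library. It had 0 counts in KT21, where 3 counts would have been 0.227 CPM.

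Phosphodiesterases hydrolyse cAMP, and the 9 listed genes include forms selective for cAMP (Pde4a, Pde4b, Pde4d, Pde7a, Pde8a) and forms that also accept cGMP (Pde1b, Pde3b). Their reads were spread over several genes: Pde7a gave 31.7% to 35.2% of them as a group mean, Pde3b 21.7% to 25.6%, Pde4b 20.1% to 21.2%, Pde4a 9.13% to 16.3%, Pde4d 5.43% to 7.68% and Pde1b 1.57% to 2.61%. Over 12 libraries Pde7a, Pde3b and Pde4b had the same order by mean share in all 4 groups, whereas without KT13 Pde4b (22.9%) came just above Pde3b (22.7%) in non-treated GFP+ cells, and Pde4a fell from 16.3% to 10.7% there. In 3′ libraries reads do not grow with transcript length, but the share of molecules read near each gene's 3′ end may differ between genes, so these are shares of reads.

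**Figure D2:**
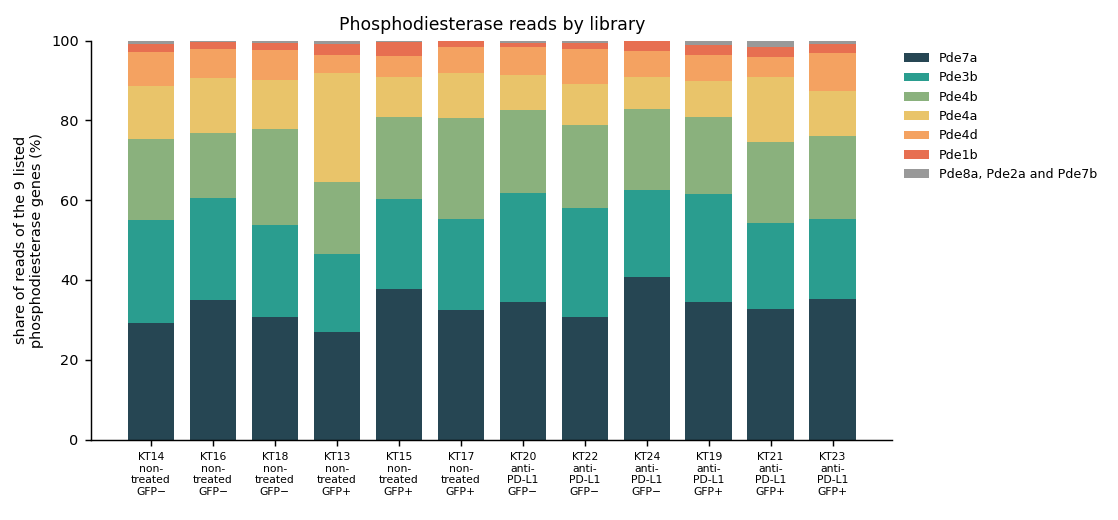
Share of the reads of the 9 listed phosphodiesterase genes (y axis, %) that each gene took in each of the 12 libraries (x axis, by group). Pde7a, Pde3b and Pde4b made up most of the reads in every library, least so in KT13. There Pde4a took the largest share, 27.4% against 26.9% for Pde7a.

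Pde4a (chr9:21165714-21213248), a cAMP-selective form, was the phosphodiesterase with the smallest unadjusted p. Its level was 30.9, 36.3 and 31.4 CPM in non-treated GFP−, 67.7, 23.3 and 28.8 CPM in non-treated GFP+, 22.2, 26.2 and 20.2 CPM in anti-PD-L1 GFP− and 22.3, 36.6 and 28.7 CPM in anti-PD-L1 GFP+ libraries. In GFP− cells all 3 treated libraries lay below all 3 non-treated ones, and these cells hold neither KT13 nor KT21. The log2 fold change there was -0.52 (95% interval -1.22 to 0.17, adjusted p = 1) when all 12 libraries shared the estimate of the spread, and -0.52 (-0.87 to -0.17, adjusted p = 0.382) in the fit of 10, from the same 6 libraries. Over both sorts it was -0.49 (adjusted p = 0.655) over 12 and -0.28 (adjusted p = 0.441) over 10 libraries. The difference between GFP+ and GFP− cells turned from 0.31 to -0.09 when KT13, the library at 67.7 CPM, and KT21 were left out. Macrophage marker sums, given above, were lower after treatment in GFP− and in GFP+ cells. In GFP+ cells the Pde4a levels of treated and non-treated libraries overlapped. The part of macrophages was not tested.

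None of the other phosphodiesterases was called either. Pde4d, another cAMP-selective form, was at 19.6, 18.6 and 19.3 CPM in non-treated GFP− against 11.2, 11.7 and 17.1 CPM in non-treated GFP+ libraries, with no overlap, and the log2 fold change was -0.52 (95% interval -1.10 to 0.06, adjusted p = 0.862), or -0.41 (-0.90 to 0.07, adjusted p = 0.628) over 10. Pde3b was likewise at 59.9, 67.6 and 58.6 against 48.7, 52.0 and 58.3 CPM. In anti-PD-L1 cells both genes overlapped between GFP+ and GFP− libraries. Pde4b ranged from 43.2 to 64.8 CPM and Pde7a from 66.4 to 101 CPM over the 12 libraries. Pde1b ranged from 2.60 to 8.23 CPM, and its log2 fold change in GFP+ cells over both treatments was 0.50 (adjusted p = 0.659) and 0.49 over 10 libraries (adjusted p = 0.621). Pde8a was the scarcest of those kept, at 2.04, 0.406 and 1.22 CPM in non-treated GFP−, 1.69, 0.76 and 0 in non-treated GFP+, 1.23, 1.14 and 0.302 in anti-PD-L1 GFP− and from 1.63 to 3.11 CPM in anti-PD-L1 GFP+ libraries. The 0 was in KT17, where 3 counts would have been 0.199 CPM. The treated GFP+ libraries lay above the treated GFP− ones, with a log2 fold change of 1.32 (95% interval -0.91 to 3.56, adjusted p = 0.993) and of 1.02 (-1.35 to 3.38) over 10 libraries. Treatment in GFP+ cells gave Pde8a 1.47 (95% interval -0.79 to 3.73, adjusted p = 0.887) and 2.23 (-0.56 to 5.01, adjusted p = 0.71), the highest fitted values of the phosphodiesterases in that comparison, with intervals that included 0.

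PKA is a tetramer of catalytic and regulatory subunits. Prkaca (chr8:83972993-83996443) and Prkacb encode the catalytic subunits, and Prkacb took 56.9% to 61.3% of their reads as a group mean (56.3% to 61.3% over 10 libraries). Prkaca was at 56.3, 45.0 and 47.9 CPM in non-treated GFP−, 81.4, 48.5 and 45.4 in non-treated GFP+, 56.4, 53.7 and 53.1 in anti-PD-L1 GFP− and 51.7, 44.0 and 56.7 CPM in anti-PD-L1 GFP+ libraries. KT13 was the highest and KT21 the lowest of the 12. The interaction, its smallest p, was -0.33 (95% interval -0.96 to 0.30) over 12 libraries and 0.08 over 10. Prkacb ranged from 67.2 to 99.2 CPM.

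Prkar1a (chr11:109649405-109669656), the type I regulatory subunit and one of the genes with a full CRE, gave 89.7% to 91.9% of the regulatory subunit reads as a group mean (91.5% to 91.9% over 10 libraries). It was at 476, 426 and 455 CPM in non-treated GFP−, 376, 468 and 437 in non-treated GFP+, 429, 505 and 456 in anti-PD-L1 GFP− and 406, 372 and 464 CPM in anti-PD-L1 GFP+ libraries. All groups overlapped. The 95% intervals of the log2 fold change were -0.34 to 0.09 for GFP and -0.22 to 0.21 for treatment, so changes of 1.5-fold lay outside both, as they did over 10 libraries (-0.21 to 0.12 and -0.17 to 0.15). Prkar2a ranged from 35.2 to 58.8 CPM, with KT13 and KT21 the highest libraries. Prkar2b (chr12:31958476-32061296), another type II subunit, was scarce, at 1.53, 2.44 and 0.919 CPM in non-treated GFP−, 1.78, 2.79 and 2.92 in non-treated GFP+, 0.723, 2.21 and 2.11 in anti-PD-L1 GFP− and 3.48, 1.29 and 2.59 CPM in anti-PD-L1 GFP+ libraries. Its log2 fold change in GFP+ cells was 0.58 (95% interval -0.33 to 1.48, adjusted p = 0.755), and over 10 libraries 0.82 (-0.13 to 1.77, adjusted p = 0.581).

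Pkig (chr2:163658386-163726158) encodes a PKA inhibitor peptide, which binds free catalytic subunits and carries them out of the nucleus. It had the smallest p of all members over 12 libraries. Its levels were 3.86, 4.47 and 2.27 CPM in non-treated GFP−, 3.38, 4.37 and 5.71 in non-treated GFP+, 1.95, 1.78 and 0.679 in anti-PD-L1 GFP− and 4.06, 4.32 and 2.59 CPM in anti-PD-L1 GFP+ libraries. The anti-PD-L1 GFP− libraries were the 3 lowest of the 12. Against them, anti-PD-L1 GFP+ libraries had a log2 fold change of 1.31 (95% interval 0.28 to 2.33, adjusted p = 0.993), and within GFP− cells treatment gave -1.26 (-2.28 to -0.24, adjusted p = 1). Without KT13 and KT21 these were 1.17 and -1.26. The interaction was 0.96 (95% interval -0.45 to 2.37), or 0.66 (-0.89 to 2.22) over 10 libraries, so a different response of GFP+ and GFP− cells was not shown. The NK cell marker sums were also lowest in the anti-PD-L1 GFP− libraries, and their part in this was not tested.

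Anchoring proteins (AKAPs) hold PKA at chosen places, and all 7 listed were kept. Akap11 (chr14:78492246-78536808), which binds both regulatory types, was at 18.7, 25.5 and 24.6 CPM in non-treated GFP−, 12.3, 19.6 and 30.1 in non-treated GFP+, 36.3, 29.0 and 29.5 in anti-PD-L1 GFP− and 28.8, 27.6 and 28.1 CPM in anti-PD-L1 GFP+ libraries. The treated libraries lay above the non-treated in GFP− cells, and in GFP+ cells KT17 lay above all 3 treated libraries. Its log2 fold change with treatment over both sorts was 0.45 (95% interval 0.06 to 0.85, adjusted p = 0.562) and 0.33 over 10 libraries (adjusted p = 0.375). Akap9, a scaffold of the centrosome and Golgi, was at 35.4, 25.8 and 27.3 CPM in non-treated GFP+ and 23.0, 19.3 and 16.3 CPM in anti-PD-L1 GFP+ libraries, which did not overlap. This log2 fold change was -0.59 (95% interval -1.13 to -0.05, adjusted p = 0.692) and -0.43 without KT13 and KT21. Ezr, the membrane linker ezrin that places PKA near the T cell receptor, ranged from 177 to 238 CPM and Akap13 from 280 to 397 CPM. Akap8, a nuclear anchor, ranged from 51.1 to 97.3 CPM with KT13 and KT21 the highest. Akap1 and Akap10, both of mitochondria or endosomes, were at or under 3.93 CPM.

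Epac, the exchange factor that cAMP switches on beside PKA, acts on the small GTPases Rap1a and Rap1b, which drive integrin adhesion. Of its genes, Rapgef3 was not kept and Rapgef4 was at 0.379 to 2.86 CPM. Rapgef6, a related exchange factor whose regulation by cAMP is not clear, was at 55.7 to 82.2 CPM. Rap1a (chr3:105727267-105801336) was at 164, 191 and 178 CPM in non-treated GFP−, 145, 171 and 143 in non-treated GFP+, 209, 197 and 200 in anti-PD-L1 GFP− and 168, 118 and 187 CPM in anti-PD-L1 GFP+ libraries. In treated cells no GFP+ library reached a GFP− library. Over both treatments the log2 fold change in GFP+ cells was -0.29 (95% interval -0.55 to -0.03, adjusted p = 0.564), and -0.18 over 10 libraries (adjusted p = 0.469), KT21 having the lowest value. Rap1b, the second gene with a full CRE, was at 313, 294 and 292 CPM in non-treated GFP−, 294, 281 and 267 in non-treated GFP+, 335, 354 and 324 in anti-PD-L1 GFP− and 291, 313 and 310 CPM in anti-PD-L1 GFP+ libraries. Here too the treated GFP+ libraries lay below the treated GFP− ones, with a log2 fold change of -0.15 (95% interval -0.42 to 0.12, adjusted p = 0.993) and -0.17 over 10 libraries. For both Rap1 genes the treated GFP− libraries lay above the non-treated, again without overlap.

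Creb1 (chr1:64532645-64604548), which encodes the factor PKA phosphorylates, was at 65.6, 67.7 and 58.6 CPM in non-treated GFP−, 61.9, 55.8 and 61.2 in non-treated GFP+, 66.3, 64.6 and 61.6 in anti-PD-L1 GFP− and 68.0, 73.0 and 69.1 CPM in anti-PD-L1 GFP+ libraries. The 3 anti-PD-L1 GFP+ libraries were the 3 highest of the 12, by a small step: the log2 fold change with treatment in GFP+ cells was 0.23 (95% interval -0.05 to 0.52, adjusted p = 0.834), and 0.23 over 10 libraries (adjusted p = 0.744). Crem, which encodes both activators and the inducible repressor ICER of the same site, was at 67.9, 50.8 and 50.3 CPM in non-treated GFP−, 67.8, 54.2 and 63.8 in non-treated GFP+, 56.5, 56.7 and 58.7 in anti-PD-L1 GFP− and 63.4, 45.4 and 86.1 CPM in anti-PD-L1 GFP+ libraries. Its highest and lowest libraries were thus in the same group. The log2 fold change in GFP+ cells over both treatments was 0.16 (95% interval -0.16 to 0.48), and 0.22 without KT13 and KT21. In anti-PD-L1 cells the 10 libraries gave 0.38 (adjusted p = 0.837). Counts per gene do not separate ICER from the longer forms.

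Most other CREB genes varied no more than Crem over the 12 libraries. Atf1, a sister factor of CREB, ranged from 35.6 to 55.1 CPM, the co-activator Crtc3 from 20.8 to 33.7, and the acetyltransferases Crebbp and Ep300 from 98.2 to 127 and 39.0 to 55.0 CPM. Crtc2, a co-activator that enters the nucleus when cAMP rises, was the exception in its spread. It was at 0.397, 4.92 and 1.35 CPM in non-treated GFP−, 0.267, 10.8 and 6.51 in non-treated GFP+, 3.04, 2.71 and 8.53 in anti-PD-L1 GFP− and 8.05, 0 and 8.22 CPM in anti-PD-L1 GFP+ libraries, where 3 counts in KT21 would have been 0.227 CPM. The 2 GFP+ libraries nearest to 0 were KT13 and KT21, and without them the log2 fold change in GFP+ cells went from 0.80 (-0.99 to 2.59) to 1.36 (0.48 to 2.23, adjusted p = 0.169).

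Salt-inducible kinases keep CRTC proteins out of the nucleus until PKA inhibits them. Sik3 (chr9:46012820-46224194) was at 34.7, 29.3 and 36.0 CPM in non-treated GFP−, 24.1, 31.2 and 31.9 in non-treated GFP+, 34.6, 41.1 and 38.2 in anti-PD-L1 GFP− and 36.8, 29.3 and 33.3 CPM in anti-PD-L1 GFP+ libraries. Its log2 fold change in GFP+ cells was -0.19 (95% interval -0.46 to 0.07, adjusted p = 0.712), and -0.10 over 10 libraries (adjusted p = 0.852). Sik1, itself a CREB target, was at 46.9, 20.5 and 64.7 CPM in anti-PD-L1 GFP+ libraries and between 44.8 and 67.5 CPM in all others. Its low value was again that of KT21.

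Csk (chr9:57626646-57653631), the kinase through which PKA dampens T cell receptor signaling, varied little. It was at 116, 113 and 122 CPM in non-treated GFP−, 122, 131 and 118 in non-treated GFP+, 110, 117 and 111 in anti-PD-L1 GFP− and 124, 114 and 115 CPM in anti-PD-L1 GFP+ libraries. The 95% intervals of its log2 fold change were -0.13 to 0.26 for GFP and -0.26 to 0.13 for treatment, and over 10 libraries -0.09 to 0.26 and -0.23 to 0.12.

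**Figure D3:**
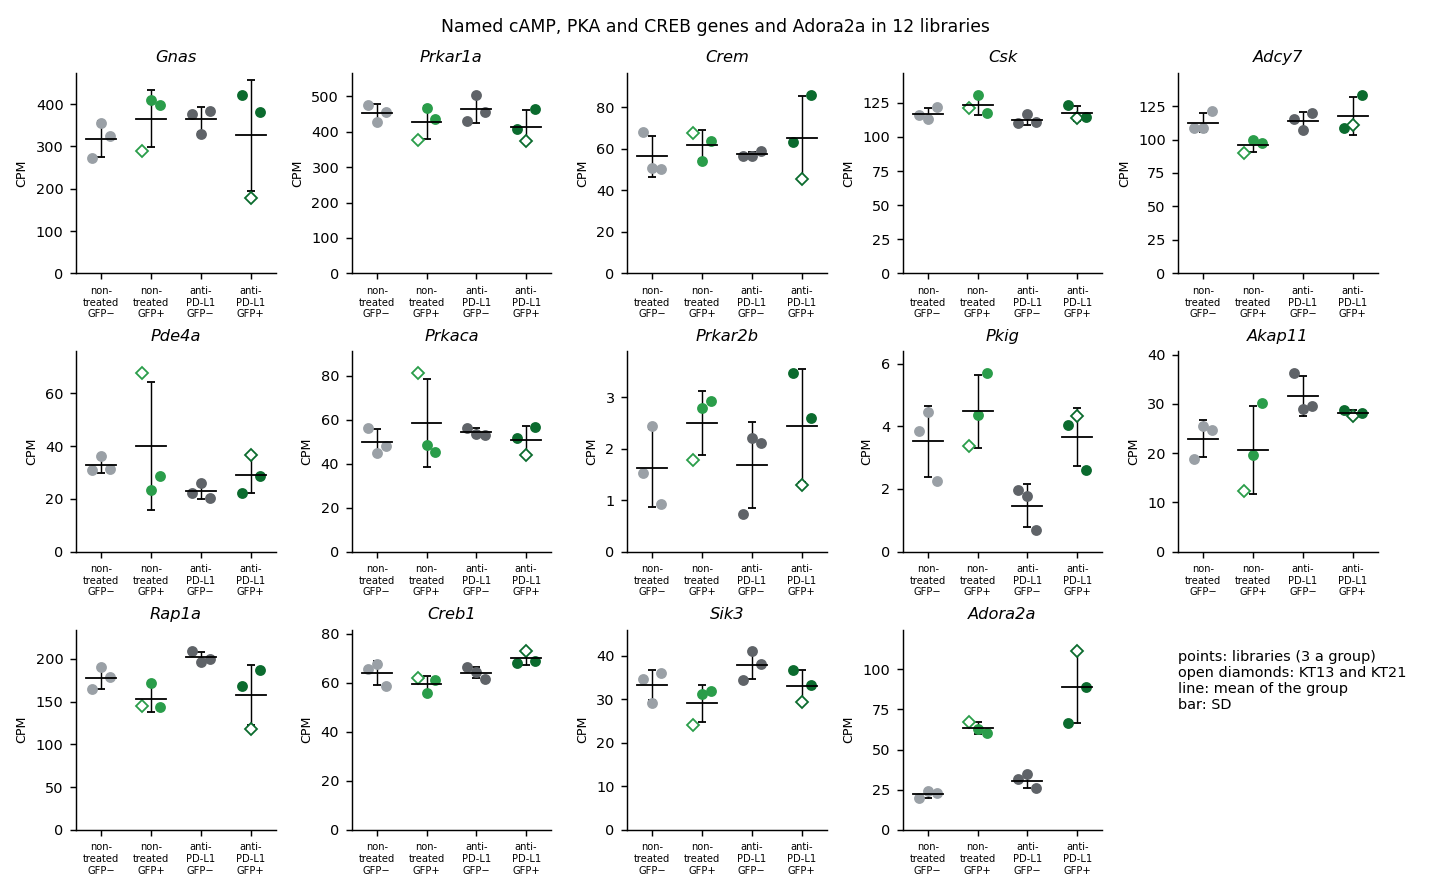
CPM (y axis, from 0) of Adora2a and the 13 genes given library by library under the naming rule, in the 4 groups of 3 libraries, with the group mean (line) and SD (bar). Adora2a separates GFP+ from GFP− libraries at 60.2 CPM and above against 34.6 and below, while the groups of most other genes overlap, and the open diamonds, KT13 and KT21, often stand at the edge of their group, as at 177 CPM for Gnas and 67.7 CPM for Pde4a.

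Counted over the 38 genes, the 3 libraries of each group did not overlap for 4 genes between GFP+ and GFP− non-treated cells (all genes 12.8%), for 7 in anti-PD-L1 cells (10.6%), for 5 with treatment in GFP+ cells (10.3%) and for 7 with treatment in GFP− cells (12.3%). The 5 with treatment in GFP+ cells were Adcy7 and Creb1, higher, and Akap9, Ezr and Crebbp, lower. Without KT13 and KT21, where 2 GFP+ libraries are left in each treatment, the first 3 counts were 12 (all genes 25.4%), 14 (22.3%) and 13 (39.6%). In the 29 genes at or above 10 CPM the highest group mean was 1.08 to 1.75 times the lowest, with a median of 1.17, and Pde4a had the largest ratio. That rank rested on KT13: over 10 libraries the ratios began at 1.06 with a median of 1.20, the largest was that of Adcy3, and Pde4a was at 1.44, with its highest mean in non-treated GFP− cells. For the 9 scarcer genes the ratios ran from 1.40 to 4.67, with a median of 1.91, and over 10 libraries from 1.55 to 4.77, with a median of 2.43.

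Within the 38 genes KT13 and KT21 stood apart in their distance from their group, given below. Of the 38 genes, KT21 was the lowest or highest of the 12 libraries for 17 and KT13 for 10, where the same held for 35.0% and 33.1% of all genes. The other libraries were so for 1 to 9 genes, KT17 for 9 and KT15 for 7. By this count KT13 was close to them. The genes lowest in KT21 were Gnas, Adcy6, Pde3b, Pde4d, Prkaca, Prkar1a, Ezr, Rapgef4, Rap1a, Crem, Crtc2 and Sik1, and those highest Pde8a, Prkar2a, Akap8, Akap13 and Creb1. In log2(CPM + 0.5), KT21 differed from the mean of its group's other libraries by -1.18 for Gnas, -1.41 for Sik1 and -4.11 for Crtc2, and KT13 by -3.54 for Crtc2. Over the 38 genes the median distance without its sign was 0.37 in KT13 and 0.31 in KT21, and over all genes 0.45 and 0.48. In the other libraries it was 0.14 to 0.24 over the 38 genes and 0.21 to 0.34 over all genes. What sets these libraries apart is not stated in the labels and was not tested.

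**Figure D4:**
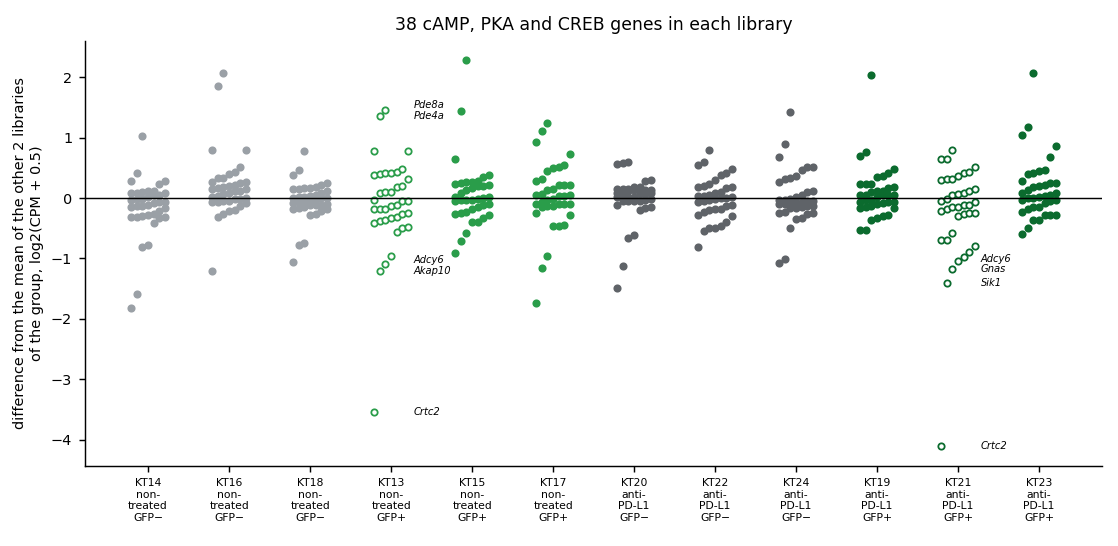
Difference of each of the 38 genes from the mean of the other 2 libraries of its group, in log2(CPM + 0.5) (y axis), for each library (x axis). Open points are KT13 and KT21, with genes at a difference of 1 or more named. Crtc2 is at -3.54 in KT13 and -4.11 in KT21.

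Genes upstream of and around these members were taken from 6 further lists. Of 13 Gs-coupled receptors, 9 were tested and edgeR called Adora2a alone. DESeq2 also called Gpr65, a proton-sensing receptor, with treatment over both sorts in the 10 libraries (log2 fold change 0.34, DESeq2 adjusted p = 0.0476, edgeR adjusted p = 0.0961), though not in the 12 (DESeq2 adjusted p = 0.87). Of 15 other G protein subunits 10 were tested, of 22 other cAMP enzymes and PKA parts 11, of 20 other Epac, Rap and CREB genes 16, and of 7 Csk partners and PKA substrates all 7. None of these 4 lists had a gene called by edgeR in any comparison with either set of libraries. At an unadjusted p under 0.05 over 12 libraries, GFP+ cells over both treatments had Ptger4, Gng2, Rap1gap2 and Pag1 lower (all genes 8.18%). Adora2a and Akap8l were higher, and Pkib was also lower. Over 10 libraries Adora2a was higher and Ptger4, Gnai2, Gng2 and Pag1 lower (all genes 10.3%). At an unadjusted p under 0.05 over 12 libraries, treatment over both sorts had 4 G protein subunits higher (Gnb4, Gnb5, Gng2 and Gng5), 2 receptors higher (Adora2a and Adrb1) and 0 genes of the other 3 lists, against 7.67% of all genes. Over 10 libraries (all genes 11.2%) the higher ones were 3 subunits (Gnai3, Gnb5 and Gng2), 4 receptors (Adora2a, Ptger2, Adrb1 and Gpr65), Akap12, Rap2a, Ptpn22 and Ptpn7, and 0 were lower. Gng2, a gamma subunit of G proteins, had a log2 fold change with treatment over both sorts of 0.36 (edgeR adjusted p = 0.237). It was called by DESeq2 (adjusted p = 0.0481). Over 10 libraries the value was 0.35 (edgeR adjusted p = 0.0528, DESeq2 adjusted p = 0.00953). The log2 fold change of Adora2a with treatment over both sorts was 0.48 (adjusted p = 0.248), and 0.40 over 10 libraries (adjusted p = 0.116).

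CREB target genes are the nearest transcript readout of the pathway, though most also answer to T cell receptor signaling and stress. The list held 20 such genes, 19 of them tested, and 0 were called by edgeR. Over 12 libraries, GFP+ against GFP− over both treatments had Maff higher and Dusp1 and Atf3 lower at an unadjusted p under 0.05 (all genes 8.18%), with a median log2 fold change of -0.04 over the 19. Over 10 libraries Maff was higher and Fosb, Dusp1, Gadd45b and Atf3 lower (all genes 10.3%), with a median of 0.01. Split by treatment over 10 libraries, non-treated cells had 0 higher and 5 lower (Fosb, Dusp1, Gadd45b, Btg2 and Atf3, all genes 9.24%). Their median was -0.19. Over 12 libraries they had Fos and Maff higher and Atf3 lower (all genes 6.05%), with a median of -0.14. Anti-PD-L1 cells over 10 libraries had Nr4a2, Nr4a3, Fosl2 and Maff higher and Atf3 lower (all genes 5.34%), with a median of 0.06. Over 12 libraries they had Maff higher and Atf3 lower (all genes 4.08%), with a median of -0.05. The interaction over 10 libraries had Nr4a2, Nr4a3, Fosl2 and Areg higher (all genes 4.29%), and 0 targets over 12 libraries (all genes 2.08%). Maff, a small basic leucine zipper factor with a full CRE, was at 48.1, 31.4 and 36.3 CPM in non-treated GFP−, 71.7, 41.7 and 57.1 in non-treated GFP+, 25.8, 20.4 and 32.8 in anti-PD-L1 GFP− and 43.3, 46.7 and 40.7 CPM in anti-PD-L1 GFP+ libraries. The log2 fold change in GFP+ cells was 0.64 (95% interval 0.29 to 0.99, edgeR adjusted p = 0.184), and it was called by DESeq2 (adjusted p = 0.0347) and limma-voom (adjusted p = 0.0374). Over 10 libraries it was 0.52, with an edgeR adjusted p of 0.0997 and a DESeq2 adjusted p of 0.069.

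Atf3, a stress-induced factor of the same family, went the other way. It was at 46.8, 42.4 and 54.6 CPM in non-treated GFP−, 29.1, 27.5 and 41.4 in non-treated GFP+, 34.1, 36.6 and 30.8 in anti-PD-L1 GFP− and 26.2, 12.6 and 22.1 CPM in anti-PD-L1 GFP+ libraries. The GFP+ libraries lay below the GFP− libraries within each treatment. Its log2 fold change in GFP+ cells was -0.64 (adjusted p = 0.222) over 12 and -0.48 (adjusted p = 0.0947) over 10 libraries, and with treatment it was -0.59 (adjusted p = 0.27) and -0.51 (adjusted p = 0.0571). DESeq2 called both over 10 libraries (adjusted p = 0.0483 and 0.0241). Areg, a growth factor with a full CRE, was at 10.9, 3.49 and 12.6 CPM in anti-PD-L1 GFP+ and 5.52, 3.04 and 4.38 CPM in non-treated GFP+ libraries. Without KT13 and KT21 its log2 fold change there was 1.66 (edgeR adjusted p = 0.0999, DESeq2 adjusted p = 0.0498), and with all libraries it was 1.06 (adjusted p = 0.723). Markers of macrophages, which can also express Atf3 and Areg, were lower after treatment, and their part was not tested.

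Treatment in GFP− cells showed how much the count of targets rests on the estimate of the spread. Over 12 libraries 1 of 19 targets, Maff, was lower at an unadjusted p under 0.05 (all genes 3.44%, both directions), and over 10 libraries 9 were, namely Nr4a1, Nr4a3, Fosb, Fosl2, Per1, Dusp1, Nfil3, Maff and Atf3 (all genes 7.22%), with 0 higher in either. The 6 libraries compared were the same and the median log2 fold change of the 19 was -0.26 and -0.25. Nr4a1, an early gene of T cell receptor signaling, was at 284, 304 and 273 CPM in non-treated and 223, 227 and 249 CPM in treated GFP− libraries, without overlap. Its log2 fold change was -0.30 in both fits, with a standard error of 0.36 in the fit of 12 and 0.10 in the fit of 10. The library KT21, at 57.0 CPM for Nr4a1 against 232 and 245 in the rest of its group, enters the shared spread of the first. The fit of 10 leaves out KT13 and KT21 together, and the part of either library in this difference was not tested. After adjustment over all genes, 0 of the 9 passed (smallest adjusted p = 0.344). In GFP+ cells 1 target was higher and 3 lower at an unadjusted p over 12 libraries (all genes 6.74%), and 3 were higher and 2 lower over 10 (all genes 8.54%).

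**Figure D5:**
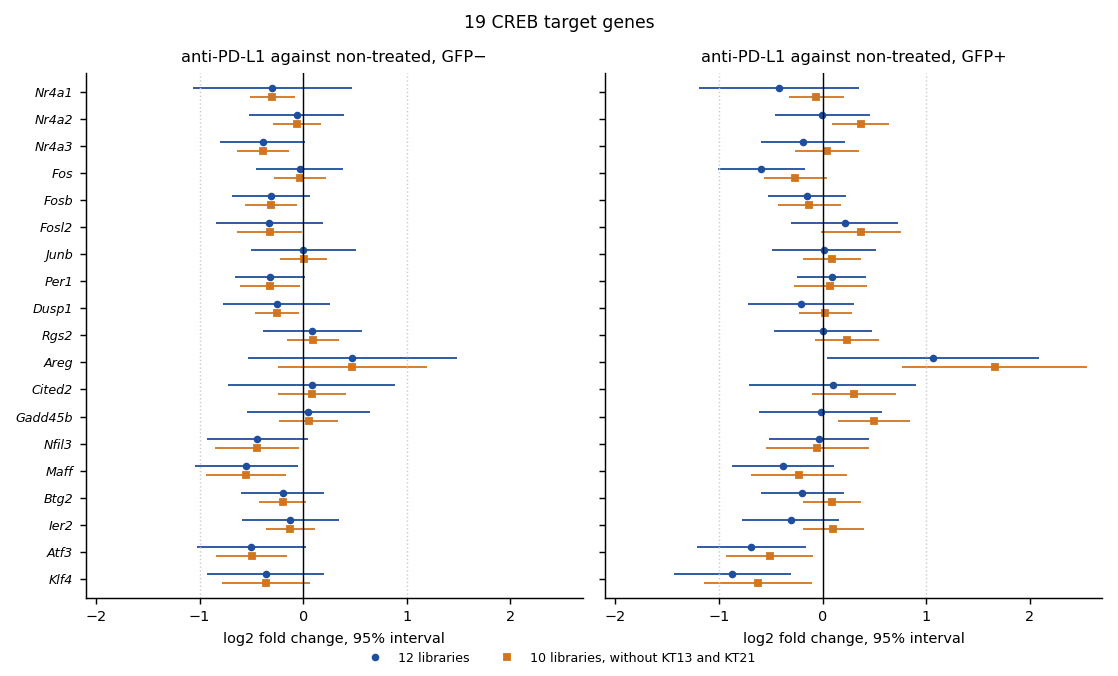
Log2 fold change with anti-PD-L1 (x axis) and its 95% interval for 19 CREB target genes in GFP− (left) and GFP+ cells (right). Blue points are 12 libraries and orange squares 10 libraries without KT13 and KT21. In GFP− cells the points of both fits coincide and the orange bars are shorter, as for Nr4a1 at -0.30, and in GFP+ cells the points themselves move.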

How the data were processed

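QuantSeq 3′ libraries of sorted CD8+ TILs, 12 in 4 groups of 3, were analysed. The authors deposited raw counts for 52636 Ensembl gene identifiers. Per the methods, HISAT2 placed the reads on mm10 after trimming by Cutadapt, and featureCounts assigned them to genes. The submitters' processing notes name cutadapt 1.7 and Subread 1.6.4, and the methods name other versions. The Ensembl release, strand setting and handling of reads with several matches are not given in the sources used here. Reads of genes that share exon bases therefore cannot be told apart, which touches the last exon of 6 of the 38 genes (Gnas, Adcy3, Adcy6, Pde7a, Akap9 and Ezr). GENCODE symbols matched 52403 identifiers.

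Here counts were normalized by TMM and tested with edgeR 4.0.16 (R 4.3.3) by the quasi-likelihood F test on genes passing filterByExpr, with the 4 groups in 1 fit and Benjamini-Hochberg adjustment over all genes. Standard errors are the log2 fold change over the square root of F, and intervals are approximate. The scripts were tested on simulated counts. Reads carry no molecular identifiers, so the floor of 3 counts covers counting error only. The labels give no batch and no pairing. Replicate pairs had a chi-square per degree of freedom of at least 12.6, so no library was a copy.

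The members, the further lists and the rules were chosen with earlier results of these data known. Genes given by library were Gnas, Prkar1a, Crem and Csk as the core and, in each role, the gene with the smallest unadjusted p over 12 libraries; a member called in any comparison would have been added. Of the further lists the rule named Adora2a. Akap9, Crtc2, Rap1b, Pde4d, Pde3b, Pde8a, Sik1, Gng2, Gpr65, Maff, Atf3, Areg and Nr4a1, and the levels of 10 CPM, were chosen after values were seen. Alternatives were 10 libraries, DESeq2 1.42.0, limma-voom (limma 3.58.1), other scalings and filters, fewer groups in the fit and leaving out each library.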

Additional observations from a re-analysis of the deposited data

How the results depend on the processing

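The count of members called over the 7 comparisons was 0 in all 151 of its alternative values, from the 10 libraries, DESeq2 with 12 or 10, limma-voom, upper-quartile and median-ratio scaling, robust dispersion, both filters, fits of only 1 comparison's groups, and leaving out each library. The 9 genes under 10 CPM had the wide intervals; the part of depth in this was not tested. No paired analysis was possible because no label ties a GFP+ library to a GFP− library, and whether the sorts shared mice is not stated.

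Some differences changed sign, among them that of Pde4a (0.31 over 12 libraries) and the interaction of Prkaca (-0.33). For GFP+ against GFP− over both treatments, leaving out KT13 and KT21 gave -0.0909 for Pde4a, -0.0455 for Prkaca and -0.0181 for Creb1 (log2), and DESeq2 on the same 10 libraries gave -0.0925, -0.0469 and -0.0194. For treatment over both sorts, Prkaca became 0.17 in edgeR and 0.16 in DESeq2 without these libraries and 0.14 with limma-voom, and Prkar1a 0.0185 with limma-voom. Upper-quartile scaling gave -0.00496 for Gnas and -0.0109 for Prkar2b, and 10 counts in every library gave -0.00435 for Prkar2b, a filter that left no value for Pkig. The interaction of Prkaca became 0.0759 (edgeR) and 0.0684 (DESeq2) without KT13 and KT21. The cause was not tested. Over these alternatives 292 other values of single genes kept their direction and side of the threshold, and 1 rose above an adjusted p of 0.05. When 1 library was left out 362 did so, 32 changed sign and 14 rose above 0.05. The values that rose were all of Adora2a within 1 treatment.

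Leaving out 1 library at a time moved the GFP difference over both treatments from -0.0916 to 0.17 for Gnas, -0.0924 to 0.14 for Prkaca and -0.0191 to 0.0389 for Creb1. It moved treatment over both sorts from -0.10 to 0.17 for Gnas, -0.0447 to 0.0335 for Prkar1a, -0.0727 to 0.15 for Crem, -0.11 to 0.12 for Prkaca and -0.16 to 0.24 for Prkar2b. Adora2a was called over both treatments in every alternative. Within 1 treatment its log2 fold change stayed at 1.33 to 1.71, but its adjusted p reached 0.429 in non-treated cells (without KT14) and 0.264 in anti-PD-L1 cells (without KT24), and 0.303 when the fit held that comparison's groups alone.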
